A study of Mus musculus with 28 samples.

Results

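The RNAs described here are 9 long non-coding RNAs of mouse frontal cortex that stay largely in the nucleus, come from imprinted loci, or both. They are Malat1, Neat1, Miat, Meg3, Rian, Mirg, Snhg11, Snhg14 and Kcnq1ot1. They were chosen by gene symbol, and all 9 were found among the 14888 genes that both deposited count tables hold. The 28 libraries came from 28 male C57Bl/6 mice, each from frontal cortex dissected out of a hemisphere kept in RNAlater. Mice under chronic social stress (CSS, n = 8) were housed in isolation over 7 weeks and faced 2 social confrontations a day in the final 20 days. Their controls (CSS control, n = 8) were age-matched, and both groups were 21 weeks old. Mice of the type 2 diabetes model (T2D, n = 6) received 75 mg/kg streptozotocin, which destroys beta cells of the pancreas, and 21 weeks of a diet that supplied 43.2% of kcal from fat. Their age-matched controls (T2D control, n = 6), like them, were 30 or 31 weeks old. The labels name only control conditions for both control groups, and no mouse carried an engineered allele by its labels.

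Long non-coding RNAs do not code for a known protein, and many act where they are made. Malat1 collects in nuclear speckles, bodies rich in splicing factors. Neat1 is the scaffold of paraspeckles, bodies that hold RNA-binding proteins and certain RNAs. Miat (also called Gomafu) lies in the nucleus of neurons in a spotted pattern. An imprinted gene is transcribed mainly from the chromosome of 1 parent. Meg3, Rian and Mirg are transcribed from the maternal copy of the Dlk1-Dio3 domain and carry microRNAs and small nucleolar RNAs (snoRNAs, guides for the modification of other RNAs). Snhg14 is the long host transcript of the domain tied to Prader-Willi and Angelman syndromes. It is made from the paternal copy, carries snoRNA arrays and, in neurons, runs antisense through Ube3a, whose paternal copy it silences. Kcnq1ot1, made from the paternal copy inside Kcnq1, silences neighbouring genes of its domain. Snhg11 is a snoRNA host gene expressed in neurons.

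Malat1 and Neat1 are neighbours on chromosome 19, with 22.0 kb between them in GENCODE M21, the source of all coordinates and long RNA sequences here (build GRCm38, also named mm10). Malat1 (ENSMUSG00000092341, chr19:5795690-5802672, minus strand) is annotated as 1 unspliced exon, and so is Neat1 (ENSMUSG00000092274, chr19:5824708-5845478, minus strand). Malat1 and the long form of Neat1 do not end in an ordinary poly(A) tail: a U-rich stretch folds back on an A-rich tract to form a triple helix. The stretches below are shown because they are what the members of this pair share in sequence. Each ends at its A-rich tract. Capitals mark the 3 strings of at least 9 bases that both stretches hold, TTTCTTTTCCTGA, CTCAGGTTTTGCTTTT and AAAAAGCAAAA, written as DNA from 5′ to 3′. They came in the same order in both RNAs. The Malat1 stretch lies at chr19:5795982-5796081 and the Neat1 stretch at chr19:5824708-5824807, both on the minus strand.
Malat1: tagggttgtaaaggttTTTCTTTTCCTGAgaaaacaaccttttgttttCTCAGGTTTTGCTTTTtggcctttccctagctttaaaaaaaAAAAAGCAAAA
Neat1: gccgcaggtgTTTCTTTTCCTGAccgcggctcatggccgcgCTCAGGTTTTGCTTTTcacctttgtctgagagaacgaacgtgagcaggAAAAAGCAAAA
In the last 100 bases of 10153 annotated lncRNA genes, on the transcript's strand, AAAAAGCAAAA was found in 0.0591%, and TTTCTTTTCCTGA and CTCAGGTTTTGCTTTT in 0.00985% each. On either strand these shares were 0.0886%, 0.00985% and 0.00985%. All 3 strings occurred together in 1 of those ends, that of Neat1. The strings were taken from that end, so Neat1 holds them by choice and is counted in each share. The Malat1 stretch is not counted there, since its annotated transcript of 6983 bases runs on past the A-rich tract, which ends at base 6691.

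Miat (ENSMUSG00000097767, chr5:112213228-112229395, minus strand) holds copies of TACTAAC, the sequence of the branch point of yeast introns, to which splicing factor 1 and the Quaking protein can bind. There were 6 copies in its transcript of 9163 bases and no copy of the reverse complement. The stretch of chr5:112216762-112216861 is shown for the 3 of them that it holds, in capitals.
Miat: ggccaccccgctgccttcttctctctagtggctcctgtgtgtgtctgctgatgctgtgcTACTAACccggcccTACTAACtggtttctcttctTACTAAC
Of 139075 windows of 100 bases laid end to end along lncRNA transcripts, 2 held TACTAAC at least 3 times. It was held at all by 0.255% (0.483% on either strand). The printed stretch was picked from all start positions in Miat for its copies, and the windows include Miat, so the 2 are not on equal terms.

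The 3 maternally expressed RNAs lie in order on the plus strand of chromosome 12. Meg3 (ENSMUSG00000021268) spans chr12:109541001-109571726, Rian (ENSMUSG00000097451) begins 32.2 kb further on and spans chr12:109603940-109661716, and Mirg (ENSMUSG00000097391) follows after another 68.0 kb at chr12:109729764-109749460. The annotation places 2 microRNA hairpins inside Meg3, 4 inside Rian and 14 inside Mirg, and 13 snoRNAs inside Rian. RefSeq (GRCm38.p6) gave mature sequences for 19 of these 20 hairpins. Its 35 mature sequences had 34 different seeds (bases 2 to 8, in capitals below, which pair with target RNAs), so that a shared seed was found for 1 pair only, both within Mirg. That pair is shown together with miR-134-5p of Mirg, known from work on neuronal dendrites, and an example from each of Rian and Meg3.
mmu-miR-453: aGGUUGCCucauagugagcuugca
mmu-miR-496a-5p: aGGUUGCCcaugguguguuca
mmu-miR-134-5p: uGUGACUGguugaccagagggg
mmu-miR-370-3p: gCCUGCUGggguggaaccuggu
mmu-miR-770-5p: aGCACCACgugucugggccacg
Levels of these microRNAs were not analysed here: values below are of the long host transcripts.

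Snhg14 (ENSMUSG00000100826, chr7:59307924-59975759, minus strand) spans 667.8 kb with 65 merged exons, and 208 annotated snoRNAs lie inside it. Of these, 3 were listed in the T2D cohort's table as genes of their own. They are shown because they are the only snoRNAs or microRNA hairpins inside a member with a value here. Capitals mark ATGATGA, which fits the C box of this snoRNA class, and the last CTGA, the sequence of its D box.
Gm23618: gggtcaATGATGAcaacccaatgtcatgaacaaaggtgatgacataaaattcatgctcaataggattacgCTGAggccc
Gm23575: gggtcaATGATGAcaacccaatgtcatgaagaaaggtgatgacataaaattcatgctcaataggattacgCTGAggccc
Snord116l16: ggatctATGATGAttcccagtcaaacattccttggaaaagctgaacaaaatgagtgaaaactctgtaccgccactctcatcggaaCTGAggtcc
They lie at chr7:59568964-59569042, chr7:59604519-59604597 and chr7:59866788-59866881. Gm23618 and Gm23575, both of 79 bases, differ by the substitution C31G (counted from the 5′ end, Gm23618 first), so reads from near-identical copies of such an array are uncertain in their assignment. Kcnq1ot1 (ENSMUSG00000101609, chr7:143203458-143296549, minus strand) is annotated as 1 exon of 93.1 kb. Snhg11 (ENSMUSG00000044349, chr2:158375638-158386145, plus strand) holds 2 snoRNAs and carries the biotype protein_coding in the tables.

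Totals of listed counts were 14.3 to 37.5 M per library in the CSS cohort and 12.1 to 22.7 M in the T2D cohort. The RNA integrity number (RIN), the listed total and the share of counts from mitochondrial DNA passed the test of a group difference in neither cohort. Of 6 two-sided exact permutation tests the lowest p was 0.0637 (adjusted p = 0.382), for a mitochondrial share of 6.84 ± 0.906% in CSS against 7.61 ± 0.645% in its controls (SD, n = 8 each). Markers for the labelled tissue were present: all 15 neuron markers were detected, and their summed level was 8418 to 10535 CPM (counts of the gene in each M counts) in CSS and 9026 to 10012 in its controls. The library T2D 1 stood apart. It was the lowest of the 12 libraries of its cohort for 8 of the 9 members, all but Neat1, against 25.7% of 1000 other lncRNA genes and 15.8% of all genes. The members' log2 fold changes in the T2D cohort are therefore given with and without it, while values of other genes and lists there include it. Since T2D 1 was singled out by the members' own values, their changes without it are descriptive only. T2D 1 also had the highest listed total (22.7 M) and mitochondrial share (8.15%) of its cohort, with T2D 3 close below (21.8 M and 8.11%). A link of these values to its low members was not tested.

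Together the 9 RNAs took 2.36 to 2.91% of all counts in CSS libraries and 2.22 to 3.37% in their controls, 1.39 to 3.13% in T2D and 2.30 to 2.87% in T2D controls. Malat1 had the third highest mean CPM of the 14888 genes, at 16634. Meg3 was 10th with 3441 CPM, Snhg14 12th with 2818 CPM, Snhg11 36th with 1294 CPM and Rian 43rd with 1200 CPM. Since a long RNA yields more reads than a short one at the same abundance, levels between genes were compared per kb of merged exons. On that scale the mean over all 28 libraries was 2382 CPM per kb for Malat1, 190.2 for Meg3, 151.8 for Snhg11, 108.0 for Snhg14, 65.8 for Rian and 50.5 for Miat. Mirg followed with 10.5, Kcnq1ot1 with 5.57 and Neat1 with 4.84 CPM per kb. Kcnq1ot1 and Neat1 were thus near the median gene, at 1.07 and 0.930 times its level per kb, and Malat1 was at 458 times that level. These per-length levels take the whole annotated exon length as used, which for Neat1 is that of its long form.

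**Figure D1:**
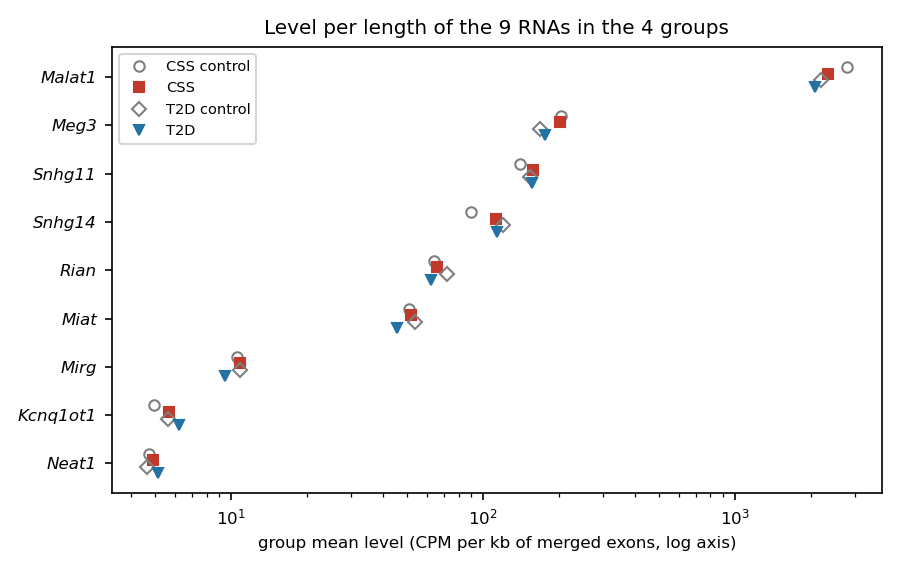
Mean level per kb of merged exons (horizontal log axis, CPM per kb) of the 9 RNAs (vertical axis) in the 4 groups (symbols). Malat1 lies between 2078 and 2786 CPM per kb, and Neat1 and Kcnq1ot1 lie between 4.63 and 6.20.

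In the CSS cohort Snhg14 alone of the 9 RNAs passed the test (edgeR's quasi-likelihood test, Benjamini-Hochberg adjusted p under 0.05 over all 15097 genes), and it was higher under stress. That test called 4.52% of all genes, 318 (2.11%) higher and 365 (2.42%) lower, and 1 of 9 is near that background. At an unadjusted p under 0.05 there were 2 members, Snhg14 and Snhg11, against 21.5% of all genes. The log2 fold change was above 0 for 8 of the 9, with a median of 0.042, and for 7741 of all 15097 genes, with a median of 0.0054. Of 1009 other lncRNA genes in this cohort 20 were called, 11 of them higher. For none of the 9 did the CSS and control libraries separate without overlap, as they did for 0.609% of all genes. In the T2D cohort no member was called, and neither was any other gene (0.0% of 15054), though 879 genes (5.84%) had an unadjusted p under 0.05 by edgeR and DESeq2 called 4. No member was among either. Without T2D 1 edgeR called no gene either. Of all genes, 1817 then had an unadjusted p under 0.05, and Kcnq1ot1 and Meg3 were the 2 members among them. T2D 1 had been singled out for the low values of these same members. Leaving it out raises their T2D means by construction, so these 2 p-values are no support for a change.

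**Figure D2:**
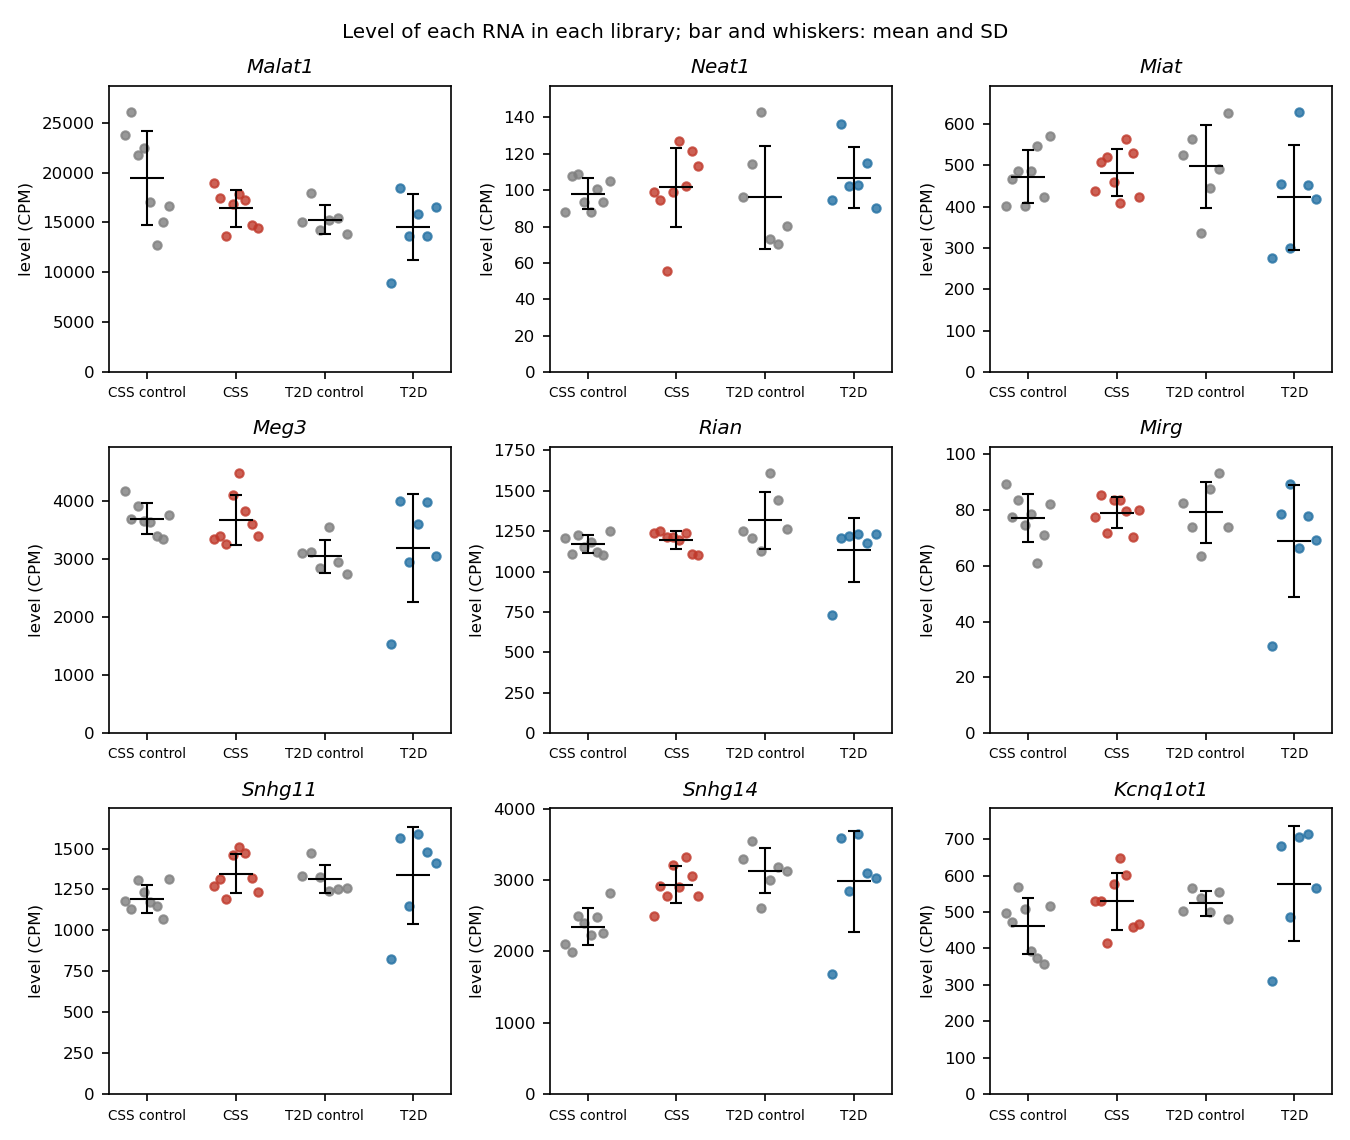
Level (CPM, vertical axes from 0) of each RNA in each library of the 4 groups (horizontal axes), with the group mean and SD as bar and whiskers. Snhg14 is higher in CSS than in its controls with some overlap, and the lowest T2D point in every panel but that of Neat1 is the library T2D 1.

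**Figure D3:**
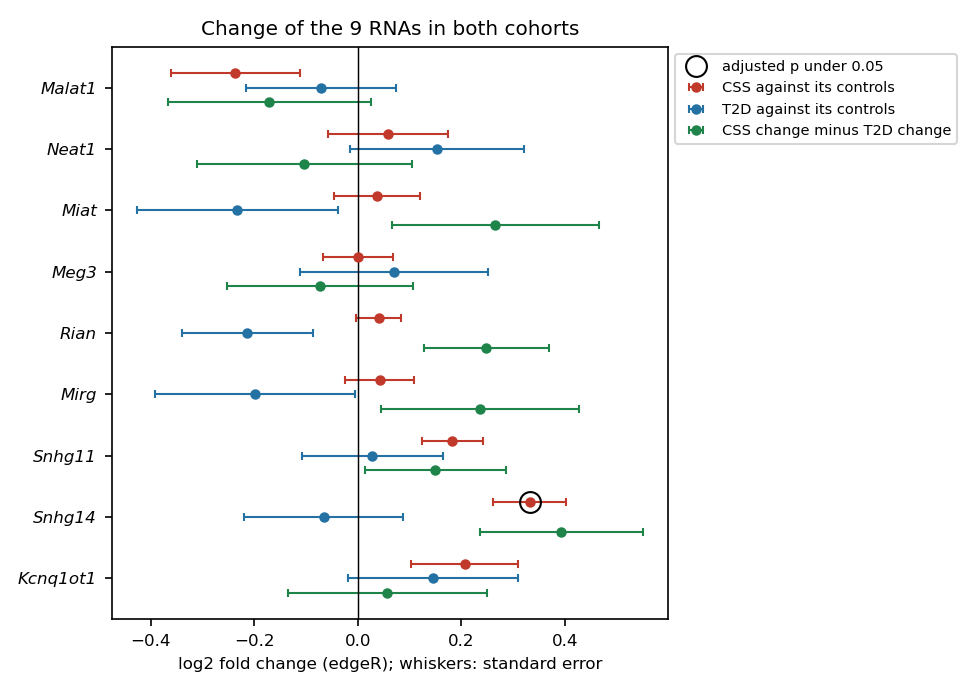
Log2 fold changes from edgeR (horizontal axis) with standard errors as whiskers for the 9 RNAs (vertical axis) in CSS, in T2D and in the CSS change minus the T2D change. The circled point, Snhg14 in CSS at 0.33, alone has an adjusted p under 0.05.

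Among the RNAs of nuclear bodies, Malat1 ranged from 13635 to 18955 CPM in CSS libraries with a median of 17072. Its controls ranged from 12750 to 26088 with a median of 19410. All 8 CSS libraries lay below the control mean, yet within the range of the controls, which were spread more widely. The log2 fold change was -0.24 ± 0.12 (SE; edgeR, adjusted p = 0.282). In the T2D cohort Malat1 was at 8910 to 18500 CPM in T2D (median 14743) and 13856 to 17980 in controls (median 15119). The T2D range enclosed that of its controls, and the log2 fold change was -0.07 ± 0.15 (adjusted p = 0.949), or 0.04 without T2D 1.

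Neat1 was at 55.8 to 127 CPM in CSS libraries (median 100.7) and at 87.8 to 109 in controls (median 97.1). The lowest value, in the library CSS 3, stood apart from the other 7, which began at 94.4. Its log2 fold change was 0.06 ± 0.12 in CSS (adjusted p = 0.816) and 0.15 ± 0.17 in T2D (adjusted p = 0.897), or 0.19 without T2D 1. In T2D it ranged from 89.9 to 137 CPM, within the 70.1 to 143 of the T2D controls. Over all libraries, the deviation of Neat1 from its group mean had r = -0.51 with RIN (n = 28 libraries), the largest such value with RIN among the 9 RNAs.

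Miat was at 409 to 564 CPM in CSS (median 485) and 400 to 571 in controls (median 476), nearly the same range. The log2 fold change was 0.04 ± 0.08 (adjusted p = 0.837). In T2D it was at 274 to 629 CPM (median 436) against 336 to 626 (median 508), with a log2 fold change of -0.23 ± 0.19 (adjusted p = 0.864), or -0.13 without T2D 1. Annotated genes on the opposite strand share 24.3% of the exonic bases of Miat, and 6.49% of those of Malat1. Whether strand was used in counting is not given in the sources used here, so reads from such partners cannot be told apart. On the same strand, annotated genes share 7.74% of the exonic bases of Miat. Among them Gm27998 (3.885%) and Gm27627 (1.614%) were listed with counts of their own.

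Of 30 listed genes for proteins of paraspeckles, the bodies that Neat1 scaffolds, 29 were tested in CSS. Values of these genes and of the speckle and splicing factors below are RNA levels, and protein was not measured. None was called higher and 5 were called lower, against 2.42% of all genes called lower. Hnrnph3, an RNA-binding protein of the hnRNP family, fell by 0.34 on the log2 scale (SE 0.08, adjusted p = 0.0243). The RNA of Nono, which codes for a core paraspeckle protein, fell by 0.24 (SE 0.06, adjusted p = 0.0257). That of Rbm12 fell by 0.45, and that of Cirbp, which codes for a cold-inducible RNA-binding protein, by 0.35. Ewsr1, the fifth, fell by 0.39 and was named after its value was seen. The median of the 29 was -0.07, beside 0.0054 over all genes.
Of 26 nuclear speckle and splicing factors linked to Malat1 or Miat, 1 was called higher and 4 lower. Srsf5, a splicing factor, fell by 0.27 (SE 0.06, adjusted p = 0.0169). Qk, which codes for the Quaking protein that recognises sequences of the kind printed above for Miat, fell by 0.27. Elavl1 rose by 0.18 on the log2 scale (adjusted p = 0.0420), and Rnps1, named after its value was seen, fell by 0.15. The median of this list was -0.01. In T2D no gene of either list was called.

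The 3 RNAs of the Dlk1-Dio3 domain had log2 fold changes of 0.0012 to 0.042 between CSS and control libraries, and none passed the test. Meg3 was at 3256 to 4479 CPM in CSS (median 3498) and 3350 to 4177 in controls (median 3668), with a log2 fold change of 0.0012 ± 0.067 (adjusted p = 0.996). Rian was at 1104 to 1248 CPM (median 1215) and 1104 to 1252 (median 1166), and its log2 fold change was 0.04 ± 0.04 (adjusted p = 0.627). Mirg was at 70.3 to 85.5 CPM (median 79.8) and 61.1 to 89.4 (median 78.0), with 0.04 ± 0.07 (adjusted p = 0.757). For Rian and Mirg the range of the CSS libraries lay inside that of the controls, and for Meg3 it enclosed it.
In the T2D cohort Rian was at 732 to 1232 CPM in T2D (median 1213) and 1125 to 1610 in controls (median 1257). All 6 T2D libraries lay below the control mean, 5 of them between 1177 and 1232, and the log2 fold change was -0.21 ± 0.13 (adjusted p = 0.838). Without T2D 1 it was -0.11. Mirg was at 31.1 to 89.3 CPM against 63.5 to 93.3, a log2 fold change of -0.20 ± 0.19, or -0.04 without T2D 1. Meg3 was at 1536 to 4002 CPM against 2731 to 3543, a log2 fold change of 0.07 ± 0.18, or 0.21 without T2D 1 (adjusted p = 0.407). None of these passed the test with or without that library.
The nearest listed genes include Dlk1 and Rtl1, protein-coding genes that are expressed from the paternal copy, and B830012L14Rik, a non-coding gene between Rian and Mirg. Dlk1 was at 4.31 ± 1.69 CPM in CSS controls and 7.31 ± 5.90 in CSS (adjusted p = 0.389), and Rtl1 was at 1.38 ± 0.844 and 1.58 ± 1.02 (adjusted p = 0.845; SD, n = 8 each). B830012L14Rik was at 65.1 ± 9.19 and 78.3 ± 12.2 CPM, with 7 of 8 CSS libraries above the control mean, and did not pass (log2 fold change 0.28 ± 0.10, adjusted p = 0.103). Of 6 protein-coding genes of the domain that were tested, none was called in either cohort.

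Snhg14 ranged from 2496 to 3320 CPM in CSS libraries with a median of 2912. Its controls ranged from 1986 to 2818 CPM with a median of 2330. All 8 CSS libraries were above the control mean and 5 were above every control, while the groups overlapped between 2496 and 2818 CPM. The mean rose from 2347 ± 261 to 2934 ± 262 CPM (SD, n = 8 each), a log2 fold change of 0.33 ± 0.07 or 1.26-fold (adjusted p = 0.0169). The call held when any 1 library was left out, with adjusted p from 0.00592 to 0.0419. It was lost when the number in the title code, described below, was taken into account.
In T2D, Snhg14 was at 1678 to 3646 CPM (median 3066) against 2611 to 3554 in controls (median 3158), the T2D range enclosing that of the controls. The log2 fold change was -0.07 ± 0.15 (adjusted p = 0.955), or 0.06 without T2D 1. The 3 snoRNAs inside Snhg14 were near the limit of the T2D table: Gm23618 was at 0.629 to 2.43 CPM in T2D and 0.504 to 2.45 in controls, Gm23575 at 0 to 3.06 and 0 to 1.81, and Snord116l16 at 0 to 2.70 and 0.504 to 2.08. None of the 3 was called, and their adjusted p-values were 0.851 to 0.949.

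Ube3a, the ubiquitin ligase gene that Snhg14 runs against, shares 6.91% of the exonic bases of Snhg14 on the opposite strand. Its level was 265 ± 38.6 CPM in CSS controls and 252 ± 19.2 in CSS (log2 fold change -0.07 ± 0.07, adjusted p = 0.646), and 257 ± 20.9 and 247 ± 17.3 in the T2D cohort (adjusted p = 0.923). Snrpn, a splicing protein gene 6.74 kb upstream of the annotated start of Snhg14, was at 528 ± 20.5 CPM in CSS controls and 475 ± 41.3 in CSS. In 6 of 8 CSS libraries it lay below every control, and it did not pass (log2 fold change -0.14 ± 0.05, adjusted p = 0.106). Ndn was at 108 ± 36.9 and 95.9 ± 33.4 CPM and Magel2 at 4.83 ± 3.23 and 5.71 ± 3.55 CPM in controls and CSS. Of 11 protein-coding genes of the Prader-Willi and Angelman domain tested in CSS and 10 in T2D, none was called.

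Kcnq1ot1 was at 416 to 649 CPM in CSS libraries (median 530) and 358 to 570 in controls (median 486). Of the 8 CSS libraries 6 were above the control mean and 3 above every control, and the log2 fold change of 0.21 ± 0.10 did not pass (adjusted p = 0.256). In T2D it was at 311 to 714 CPM (median 623) against a narrow 482 to 567 in controls (median 520). There 3 of 6 T2D libraries were above every control and 1, T2D 1, was below every control. The log2 fold change was 0.15 ± 0.16 (adjusted p = 0.900), or 0.27 without T2D 1 (adjusted p = 0.316). Cdkn1c, a growth-restraining cell cycle inhibitor that Kcnq1ot1 is known to silence, was at 3.70 ± 1.07 CPM in CSS controls and 3.06 ± 1.03 in CSS (adjusted p = 0.485). It was at 2.76 ± 1.20 in T2D controls and 3.50 ± 1.78 in T2D (adjusted p = 0.888). Of 8 protein-coding genes of the Kcnq1 domain that were tested, none was called in either cohort.

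Snhg11 was at 1194 to 1507 CPM in CSS libraries (median 1318) and 1069 to 1315 in controls (median 1176). Of the 8 CSS libraries 7 were above the control mean and 5 above every control. The log2 fold change was 0.18 ± 0.06 and missed the threshold in edgeR (adjusted p = 0.0763), while DESeq2 called it (adjusted p = 0.0358). In T2D it was at 822 to 1589 CPM (median 1443) against 1240 to 1472 in controls (median 1292), with a log2 fold change of 0.03 ± 0.14 (adjusted p = 0.980), or 0.14 without T2D 1. Its neighbour Snhg17, another snoRNA host gene, was at 13.7 ± 1.51 CPM in CSS controls and 13.6 ± 2.14 in CSS. Ralgapb, the nearest listed gene on the other side, was at 192 ± 7.62 CPM in CSS controls and 209 ± 15.9 in CSS. All 8 CSS libraries were above its control mean and 6 above every control, but it did not pass (log2 fold change 0.14 ± 0.05, adjusted p = 0.0971).

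Among 38 other imprinted genes tested in CSS, 1 was called higher and 1 lower, near the 4.52% of all genes that were called. Igf2r, a receptor that clears insulin-like growth factor 2, rose by 0.17 on the log2 scale (SE 0.05, adjusted p = 0.0466), and Zrsr1 fell by 0.28 (SE 0.08, adjusted p = 0.0445). Among 20 genes of Polycomb and allied chromatin proteins, the DNA methyltransferase Dnmt1 was called and fell by 0.26 (adjusted p = 0.0475). Of 45 other imprinted or nuclear non-coding RNAs, Gm26917 was called and rose by 0.94 (adjusted p = 0.0384). These counts of 1 of 20 and 1 of 45 were likewise near or below that share. In T2D none of these was called.

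Markers of several cell types were called in CSS as well, where 2.11% of all genes were called higher and 2.42% lower. In bulk tissue, fewer cells of a type and less RNA per cell cannot be told apart. Microglia markers were called lower in 5 of 14 and higher in none (median log2 fold change -0.36), with a summed level of 210 to 413 CPM in CSS and 397 to 464 in controls. Astrocyte markers were called higher in 2 of 14, oligodendrocyte precursor markers in 2 of 10, endothelial markers in 2 of 11 and meningeal fibroblast markers in 1 of 11. Their summed levels in CSS and in controls were 4702 to 5564 and 4270 to 4905 CPM for astrocytes, 467 to 572 and 436 to 501 for precursors, 185 to 271 and 196 to 234 for endothelium and 87.1 to 264 and 76.9 to 153 for meningeal fibroblasts. Neuron and oligodendrocyte markers had no calls among 15 and 14, and no marker was at 0 in all libraries. Red blood cell markers had no calls among 5, with summed levels of 133.5 to 569.8 CPM in CSS and 102.5 to 232.7 in controls. All 5 had a log2 fold change above 0 (median 0.82) and an unadjusted p under 0.05 in edgeR. Striatal projection neuron markers had no calls among 11, with summed levels of 1365 to 2141 CPM in CSS and 1505 to 3025 in controls. Their median log2 fold change was -0.24, and 0 of 11 were above 0. Mitochondrially encoded genes were called lower in 6 of 13, with summed levels of 23417 to 26602 CPM in CSS and 24164 to 31547 in controls. The part of these markers in the rise of Snhg14 was not tested. In T2D no marker was called, and the median log2 fold change of the 14 microglia markers was -0.43, with 0 of 14 above 0. All 11 striatal projection neuron markers were above 0 there, with a median of 0.53. Their summed levels were 511 to 2702 CPM in T2D and 628 to 2451 in controls. What moved these markers was not tested.

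The bracketed code that ends each sample title of the CSS cohort carries a number after the letter C, whose meaning is not given in the sources used here. The number was 1 for 4 controls and 1 CSS library, 2 for 3 controls and 1 CSS library, 3 for 1 control and 3 CSS libraries, and 4 for 3 CSS libraries only, so it was unevenly spread over the groups. Among the controls Malat1 was at 21725 to 26088 CPM in the 4 with number 1, and at 12750 to 17095 in the other 4. Such a separation of these 4 controls upwards was seen for 4.99% of all genes and downwards for 5.51%. Among libraries with number 1 Snhg14 was at 2496 CPM in CSS and 1986 to 2499 in controls. With number 2 it was at 2922 CPM in CSS and 2224 to 2478 in controls, and with number 3 at 2782 to 3215 in CSS and 2818 in the control. Kcnq1ot1 was at 358 to 394 CPM in the 3 controls with number 2 and at 474 to 570 in the 5 others. The share of all genes with such a split at number 2 was not computed, so this split is descriptive only.

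With the number as a factor in the fit, the log2 fold change of Snhg14 was 0.19 (adjusted p = 0.300), that of Snhg11 0.13 and that of Malat1 -0.04, no member was called, and 2 of all genes were. With the 5 libraries of number 1 left out, a choice made after seeing the data, Snhg14 had 0.30 (adjusted p = 0.233), Kcnq1ot1 0.37 (adjusted p = 0.286) and Snhg11 0.21 (adjusted p = 0.306). Malat1 was then at 0.07, the other side of 0. No gene was called in that smaller set, where 1927 had an unadjusted p under 0.05 by edgeR, so none of the list counts above for CSS was kept there. The number and the stress cannot be told apart for the 3 CSS libraries with number 4, which have no control.

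**Figure D4:**
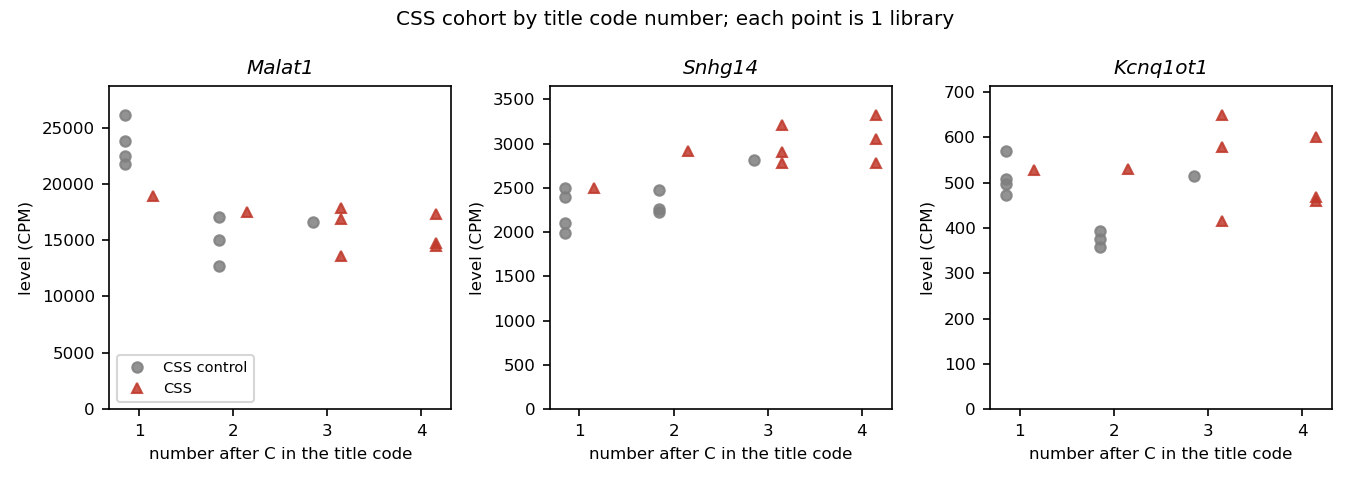
Level (CPM, vertical axes from 0) of Malat1, Snhg14 and Kcnq1ot1 in each library of the CSS cohort against the number after C in the title code (horizontal axes), with circles for controls and triangles for CSS. The 4 controls with number 1 have the highest Malat1, at 21725 to 26088 CPM, and number 4 holds CSS libraries only.

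The change in CSS was compared with that in T2D in a contrast over all 28 libraries. It called 12 of 14888 genes (0.0806%), 0.047% higher and 0.0336% lower, and no member. Snhg14 came nearest, with a CSS change above its T2D change by 0.39 ± 0.16 on the log2 scale (adjusted p = 0.301). For Rian the value was 0.25 ± 0.12 (adjusted p = 0.404), and these were the 2 members with an unadjusted p under 0.05, against 12.4% of all genes. Without T2D 1 they were 0.27 (adjusted p = 0.264) and 0.15 (adjusted p = 0.414). The call for Snhg14 in CSS and its absence in T2D therefore did not pass a test of the difference. When the 4 group means of each RNA were put in order, neighbouring groups differed by more than the larger of their SDs in 2 places. Snhg14 in CSS was above its controls by 587 CPM (larger SD 262), and Snhg11 in T2D controls was above that of CSS controls by 119 CPM (larger SD 87.4). Groups that are not neighbours in the order also differed by more than the larger SD, for Snhg14, Meg3 and Snhg11. The mean of Snhg14 was lowest in CSS controls, at 2347 ± 261 CPM, against 3130 ± 316 in T2D controls (SD). Its mean in CSS, 2934 ± 262 CPM, was near that in T2D, 2980 ± 713 CPM. Meg3 was at 3694 ± 269 CPM in CSS controls and 3048 ± 284 in T2D controls. Snhg11 was at 1347 ± 117 CPM in CSS and 1194 ± 85.5 in CSS controls. The cohorts differ in age and in table, so that gaps between them have no test.

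How far the 9 RNAs varied alike from library to library within groups was described next. Deviations of log2 CPM from the group mean gave a median Pearson r of 0.62 over the 36 pairs (n = 28 libraries, which all pairs share), and 33 of 36 values were above 0. Without T2D 1 the median was 0.35, and 31 were above 0. In the CSS cohort by itself it was 0.30. Pairs of other genes were not measured in this way, so whether such values are particular to the 9 RNAs was not tested. The closest pairs were Snhg11 with Kcnq1ot1 (r = 0.91, and 0.85 without T2D 1), Meg3 with Snhg11 (0.88, and 0.73) and Rian with Mirg (0.87, and 0.69), the last of which share a domain. Malat1 and Neat1, neighbours on the chromosome, had r = 0.22. Neat1 and Rian gave the lowest value (r = -0.25, and -0.50 without T2D 1). In T2D 1 the levels of the 8 low members were 39.9 to 61.6% of the median of the other 11 libraries, lowest for Mirg at 31.1 CPM, and Neat1 was at 92.7%. With the listed total of a library, r was -0.61 for Snhg14, -0.53 for Snhg11, -0.40 for Meg3 and -0.38 for Miat and for Kcnq1ot1. Malat1 was nearest 0, at -0.05. With the mitochondrial share, r was -0.51 for Miat, -0.49 for Snhg14, -0.45 for Rian and -0.40 for Snhg11, and above 0 for Neat1 (0.27).

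**Figure D5:**
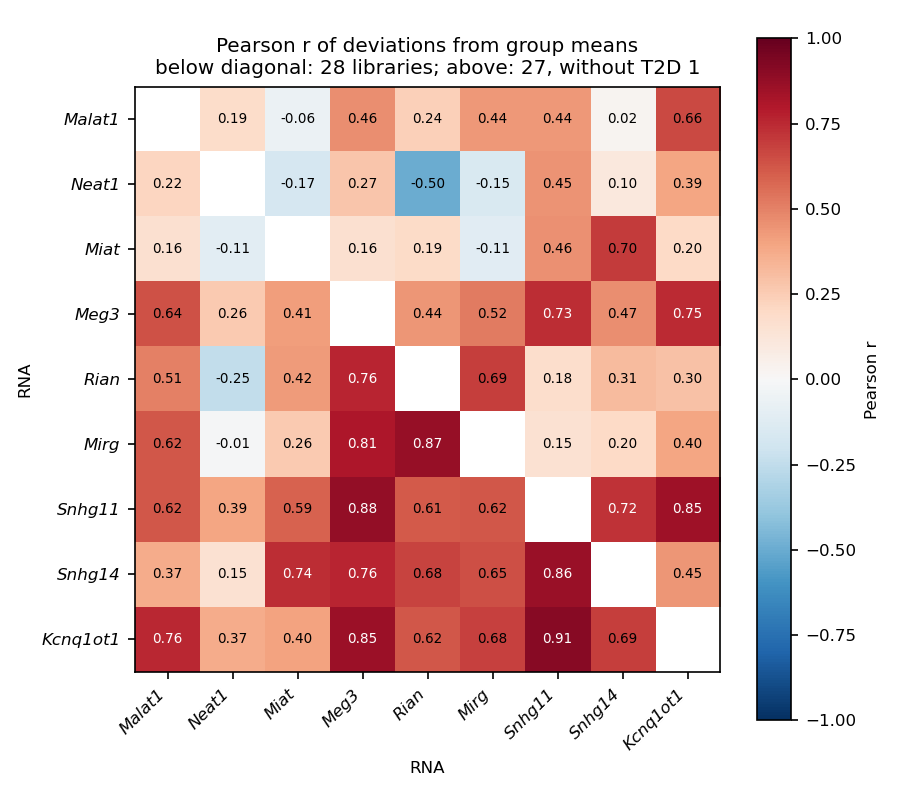
Pearson r between the deviations of each pair of RNAs (both axes) from their group means, over 28 libraries below the diagonal and over 27 without T2D 1 above it. Snhg11 and Kcnq1ot1 have the highest value on both sides, 0.91 and 0.85.

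Among 13821 other genes in both tables, those whose deviations were most like those of Malat1 were Fubp1 (r = 0.93), Hnrnpu (0.87) and Gm47626 (0.87). Fubp1 and Hnrnpu code for proteins that bind nucleic acids in the nucleus. For Neat1 they were Atf7, Creb5 and Kdm6a (0.79 to 0.76), for Miat Ltk, Unc13b and Grk3 (0.84 to 0.83), and for Meg3 A330076H08Rik, B830012L14Rik of its own domain and Gm3764 (0.89 to 0.88). For Rian they were A330023F24Rik, Donson and Ypel4 (0.85 to 0.83), and for Mirg Luc7l, the non-coding Ftx and Zmym3 (0.88 to 0.84). Snhg11 was most like Gm47808, Prpf39 and Gm20342 (0.90 to 0.88), and Snhg14 like Tmem181b-ps, Nvl and Sec61a2 (0.89 to 0.87). Kcnq1ot1 had Gm47808, Gm37814 and Apex2 (0.93 each), the first of which it shared with Snhg11. Without T2D 1 these values were 0.90 for Fubp1 with Malat1, 0.90 and 0.86 for Gm47808 with Kcnq1ot1 and Snhg11, and 0.67 to 0.90 over all 27.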

How the data were processed

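Total RNA was prepared with the TruSeq Stranded kit after Ribo-Zero Gold depletion, per the labels' protocols. The authors deposited estimated counts per gene, 1 table per cohort. Salmon 1.1.0 and the build mm10 are named in the submitters' processing notes. For summing to genes, length scaling, use of strand and the filter on low genes, the method is not given in the sources used here. Counts were rounded and scaled by TMM. CSS and T2D were each tested against their controls with edgeR 4.0.16 (robust quasi-likelihood test, Benjamini-Hochberg adjustment over all genes, threshold 0.05, R 4.3.3), and the difference of both changes over 28 libraries. The labels describe separate mice, so p-values set group differences against the spread between animals. Fits without the title code number take the libraries of a group as independent, which was not tested. Where DESeq2 1.42.0 is not named, an adjusted p is edgeR's. Levels are CPM scaled over all 28 libraries. Log2 fold changes are given with standard errors. Scripts were tested on simulated data.

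The members and the gene lists were chosen with earlier results of these data known. The naming rule took all members, up to 4 called genes of smallest p per pathway list, genes that neighbour or overlap a member, and the 3 most similar genes (Pearson r of deviations of log2 CPM, prior count 2, mean log2 CPM at least 1). Alternatives covered scaling, DESeq2, limma 3.58.1 (voom), filters, RIN, the title code number, replicate numbers as a block and each library left out. The values of 1 gene called in a list are not reported here.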

Additional observations from a re-analysis of the deposited data

Results flagged for a closer look

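In 36 sets of libraries (9 RNAs in 4 groups), 3 held a library set apart from the rest of its group by Dixon's criterion, which chance meets in about 1 in 20. Malat1 in T2D control 2 was at 17980 CPM, above the other 5 at 13856 to 15399. Neat1 in CSS 3 was at 55.8 CPM, below the other 7 at 94.4 to 127. Rian in T2D 1 was at 732 CPM, below the other 5 at 1177 to 1232.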

How the results depend on the processing

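In CSS, 683 genes and 1 member were called. DESeq2 called 1313 genes and 2 members (Snhg11 added), the title code number as a factor gave 2 genes and 0 members, and leaving out the libraries of number 1 gave 0 and 0; the cause was not tested. Leaving out 1 library gave 222 (without CSS 6) to 794 genes, always with 1 member, Snhg14. The count was more than 1.5 times lower without CSS 5, 6 or 8 and without controls 1 to 5 (360, 222, 439, 276, 251, 402, 429 and 414). In T2D, DESeq2 called 4 genes where edgeR called 0, and every setting called 0 members. The contrast called 12 genes: 5 without composition scaling, 130 by DESeq2, 45 by limma voom, 0 with RIN and 0 to 32 with 1 library left out, where 19 of 28 fits gave 0. It called 0 members throughout.

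With 1 library left out, the members' log2 fold changes reversed in 10 of 144 values in CSS, 7 of 108 in T2D and 3 of 252 in the contrast. Under the other alternatives they reversed in 10 of 99, 5 of 81 and 3 of 45. Of the rest, Snhg14 in CSS lost its call in both title code settings (0.19 and 0.30) and Snhg11 gained one by DESeq2 (0.18). Reversed values were as follows. In CSS, Meg3 was -0.0030 under size factors of DESeq2, -0.0062 under upper quartile scaling, -0.0030 by DESeq2, -0.019 by voom, -0.0041 with the block, -0.051 with the title code and -0.051 to 0.029 with 1 library left out. With the title code Neat1 was -0.048 and Miat -0.074. With number 1 left out Malat1 was 0.066 and Miat -0.048. With 1 library left out Neat1 was -0.00043 to 0.15 and Miat -0.00052 to 0.082. In T2D, Malat1 was 0.0082 and Snhg14 0.0089 by voom, Meg3 -0.018 and Snhg11 -0.048 with RIN, and Snhg11 -0.0050 with the block. With 1 library left out Malat1 was -0.15 to 0.039, Snhg14 -0.14 to 0.057, Meg3 -0.0081 to 0.21 and Snhg11 -0.031 to 0.14. In the contrast Kcnq1ot1 was -0.092 by voom and -0.070 to 0.13 with 1 library left out, Neat1 0.037 and Meg3 0.019 with RIN, and Meg3 -0.22 to 0.0028 with 1 library left out.

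Libraries of equal replicate number were mostly not alike. Their r was above 0.1 in 3 of 8 pairs in CSS (-0.16 to 0.33) and 1 of 6 in T2D (-0.01 to 0.13), and 2 and 0 pairs were best matched. So few pairs cannot exclude a pairing by design. With replicate numbers as a block, CSS gave 478 genes and 1 member (Snhg14, adjusted p = 0.0156) and T2D 0. The snoRNA values were low, at 0 to 3.06 CPM, and what limited them was not tested.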
